A study of Mus musculus with 10 samples.

Results

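The BMP response genes described here were 10 genes chosen by name, not by their values: *Id1*, *Id2*, *Id3* and *Id4*, *Msx1* and *Msx2*, *Smad6*, *Smad7* and *Smad9*, and *Bambi*. The choice was made with earlier results of these data known. The genes were found by symbol among 52227 genes in a table of read counts, and all 10 had enough counts to be tested. The counts came from the cortical hem (CH), a signaling center at the edge of the cortical primordium, cut by laser capture from embryos at embryonic day 13.5. Embryos of 2 genotypes were compared, 5 wild-type and 5 *Lmx1a-/-*, to ask which genes of the CH depend on the LIM-homeodomain transcription factor Lmx1a. The *Lmx1a-/-* embryos were homozygous for drJ, a null allele that arose spontaneously. It yields an inactive protein that antibodies still stain, so that Lmx1a function was lost in every tissue that uses it, the choroid plexus included. All animals were on a mixed background of C57Bl6, FVB and CD1, both sexes were used, and the CH of 1 embryo, pooled over its sections, made 1 library.

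Bone morphogenetic proteins (BMPs) are secreted ligands of the dorsal midline of the brain. They bind pairs of type I and type II receptor kinases, which phosphorylate the transducers Smad1, Smad5 and the product of *Smad9*. These bind Smad4, enter the nucleus and raise the transcription of a small set of targets found in many tissues, among them the *Id* and *Msx* genes and inhibitors that close feedback loops, *Smad6*, *Smad7* and *Bambi*. In the telencephalon BMPs of the hem and the midline are best known for specifying the choroid plexus epithelium and for patterning the adjacent hem.

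Library totals lay between 19145952 and 36462780 counts, of which 20.6 to 27.6% were mitochondrial, and levels are given as CPM, a gene's count scaled to a common library size with TMM factors. *Lmx1a* itself was counted at 71.2 ± 18.2 CPM (SD, n = 5) in wild-type and 114 ± 21 CPM (SD, n = 5) in *Lmx1a-/-* libraries, so that a transcript of the drJ allele was still present and its level does not check the genotype. Sex was not balanced: *Xist*, the RNA of the inactive X chromosome, lay between 4399 and 5169 CPM in wild-type embryos 2 to 5 and at 1.0 CPM in wild-type embryo 1, and did not exceed 1.15 CPM in any *Lmx1a-/-* embryo, while Y-linked genes were counted in the latter 6 libraries. The library of wild-type embryo 3 stood apart. Its summed CPM over 9 hem markers was 2205 (2982 to 4181 in the other 4 wild-type libraries), over 12 choroid plexus markers 121 (239 to 480), over 11 meningeal markers 1066 (403 to 777) and over 5 markers of cortical neuroepithelium 646 (309 to 559). Results on the response genes are therefore given with and without it. In tissue of this kind, fewer cells of a type and less RNA per cell cannot be told apart.

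In the *Lmx1a-/-* CH, 5 of the 10 response genes were lower at a false discovery rate (FDR) under 0.1, *Msx1*, *Smad9*, *Id1*, *Msx2* and *Id2*, against 2.29% of the 21664 genes tested that were called lower and 4.02% called in either direction. No member was called higher by edgeR's quasi-likelihood test, against 1.72% of all genes. At an unadjusted p under 0.05, 7 members were lower and 1, *Id4*, was higher, where 16.4% of all genes had such a p. At the FDR threshold edgeR's likelihood ratio test and DESeq2 each called *Id4* higher and *Bambi* lower as well. The median log2 fold change of the 10 genes was -0.66, beside -0.0049 over all genes tested. The libraries of the genotypes did not overlap for 1 member, *Smad9*, while 4.44% of all tested genes had no overlap and 2.27% had none with the mutants lower. Without wild-type embryo 3, 6 members were called lower and 1 higher, against 4.67% of all genes called, and 7 members did not overlap (*Id1*, *Id2*, *Msx1*, *Msx2*, *Smad9* and *Bambi* lower, *Id4* higher), with 6.7% of all genes then free of overlap.

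**Figure D1:**
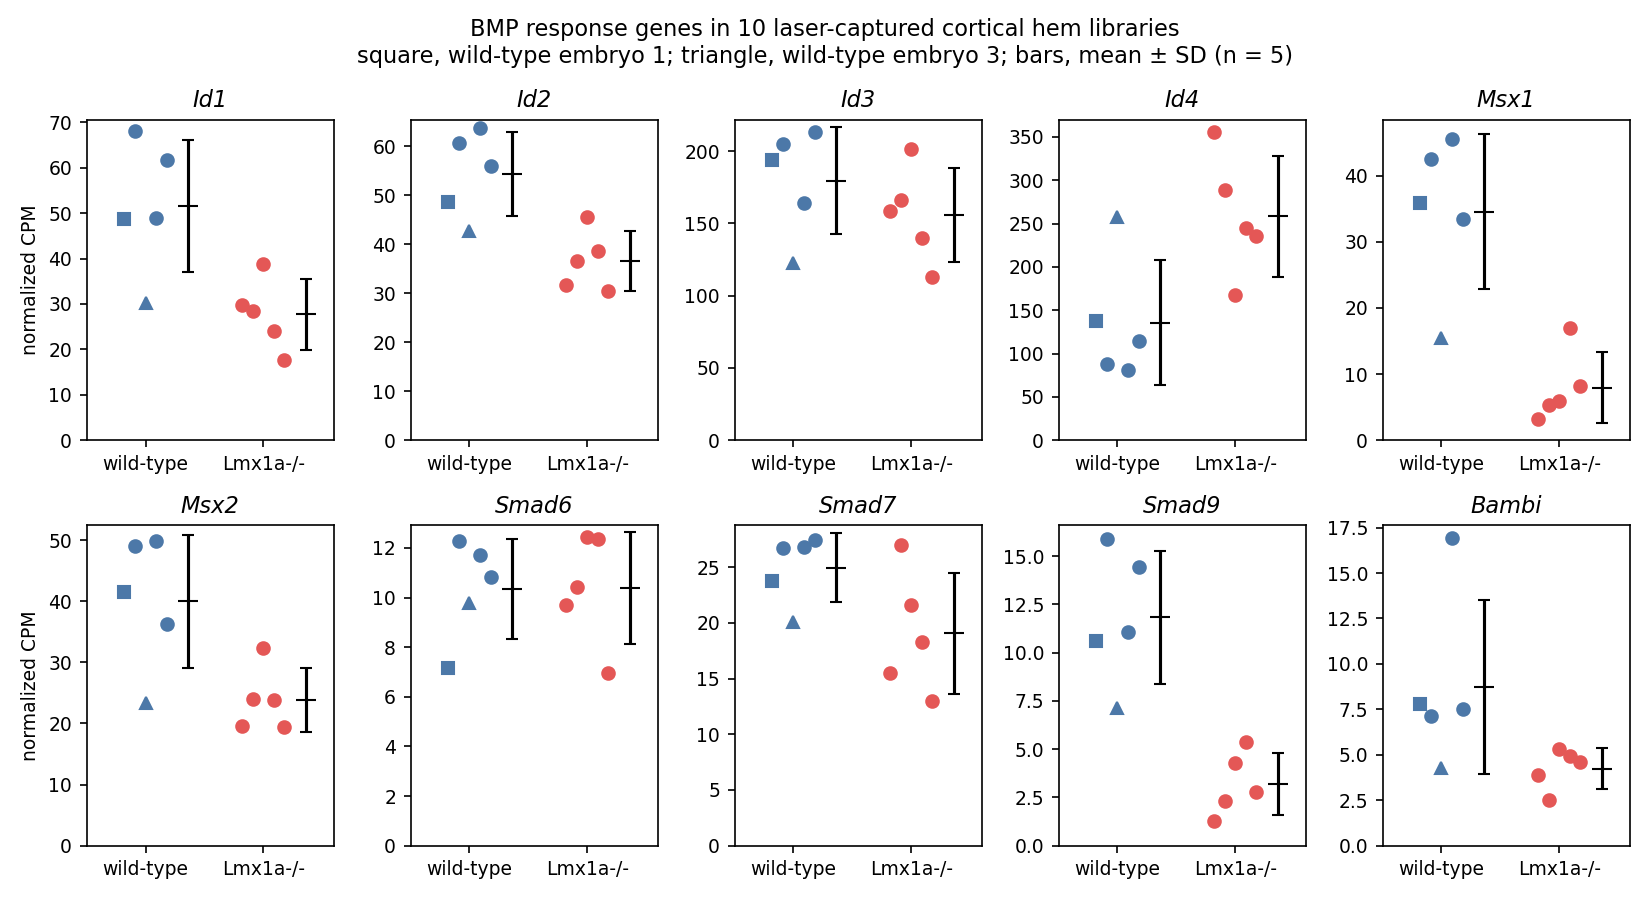
Normalized CPM of the 10 BMP response genes in each library (1 point per embryo, 5 wild-type and 5 *Lmx1a-/-*), with the mean and SD of each genotype; each panel has its own vertical axis. In the *Smad9* panel every *Lmx1a-/-* point lies below every wild-type point, and wild-type embryo 3 is the lowest wild-type point for *Id1*, *Id2*, *Id3*, *Msx1*, *Msx2*, *Smad7*, *Smad9* and *Bambi* and the highest for *Id4*.

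*Msx1* and *Msx2* encode homeodomain proteins that mostly repress transcription and that mark the dorsal midline along the neural tube. *Msx1* (ENSMUSG00000048450, GRCm38 chr5:37820485-37824583, minus strand) had the largest fold change of the 10 genes. The wild-type libraries 1 to 5 had 35.8, 42.4, 15.4, 45.5 and 33.4 CPM. The *Lmx1a-/-* libraries 1 to 5 had 3.19, 5.33, 6.0, 16.9 and 8.24 CPM. The groups overlapped only because wild-type embryo 3 lay just under *Lmx1a-/-* embryo 4. Mean levels were 34.5 ± 11.7 and 7.94 ± 5.34 CPM (SD, n = 5 each), a 4.31-fold lower level in the mutant CH (log2 fold change -2.11, SE 0.39, FDR = 0.0136). Without wild-type embryo 3, the log2 fold change was -2.30 (FDR = 0.00392), and without *Lmx1a-/-* embryo 4 it was -2.60 (FDR = 0.00304).

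The 250 bases before the start of *Msx1* are printed because no other member changed as much. They are from the RefSeq promoter table for GRCm38.p6 and lie on the minus strand at chr5:37824586-37824835. The motifs searched on both strands of the 300-base promoter windows, GGCGCC, GTCTAGAC and TAATTA, were not found in that of *Msx1*, so no letter is in capitals. A joined element of GGCGCC followed after 5 bases by GTCT, which Smad complexes bind, was searched as well. It was found in 0.0731% of all windows of the table and in none of the 7 that belong to members. An element this rare would seldom be met in 7 windows, so its absence there tells little.
*Msx1*: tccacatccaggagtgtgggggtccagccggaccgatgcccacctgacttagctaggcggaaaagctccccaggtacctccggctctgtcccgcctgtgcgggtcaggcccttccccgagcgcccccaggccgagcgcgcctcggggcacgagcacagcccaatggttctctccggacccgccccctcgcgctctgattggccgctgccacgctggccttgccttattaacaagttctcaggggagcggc

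*Msx2* (ENSMUSG00000021469, chr13:53466884-53473074, minus strand) was lower by a smaller step. Wild-type libraries had 41.5, 49.0, 23.4, 49.9 and 36.2 CPM, and *Lmx1a-/-* libraries had 19.6, 24.0, 32.4, 23.9 and 19.4 CPM. Wild-type embryo 3 was again the lowest of its group and alone made the overlap, since the other 4 wild-type libraries lay above every mutant. Means were 40.0 ± 10.9 and 23.9 ± 5.27 CPM (SD, n = 5 each), 1.67-fold lower (log2 fold change -0.74, SE 0.20, FDR = 0.0752). The call held in 3 of the 10 fits that left out 1 embryo (those without wild-type embryo 3 or 5 or *Lmx1a-/-* embryo 3), with FDR between 0.00964 and 0.171 over all 10. It was -0.89 (FDR = 0.00964) without wild-type embryo 3.

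*Msx1* and *Msx2* were not equally reduced. In the wild-type libraries the log2 ratio of *Msx1* to *Msx2* counts lay between -0.60 and -0.11, and in the mutants between -2.61 and -0.50. Per kilobase of exon, *Msx1* was at 11.1 and *Msx2* at 12.2 CPM per kb in wild-type CH, and at 2.56 and 7.28 CPM per kb in *Lmx1a-/-* CH. The mean ratio was lower by 1.53 on the log2 scale (exact permutation test, two-sided, p = 0.0159, adjusted p = 0.0265 over 10 ratios; lower by 1.62 without wild-type embryo 3, adjusted p = 0.0227), and *Lmx1a-/-* embryo 4 was the only mutant within the wild-type range.

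The Id proteins are helix-loop-helix factors without a DNA-binding region. They bind the E proteins that proneural factors need as partners and so hold back neuronal differentiation. *Id1* (ENSMUSG00000042745, chr2:152736251-152737410, plus strand) had 48.8, 68.1, 30.1, 49.0 and 61.8 CPM in wild-type libraries and 29.9, 28.4, 38.8, 24.1 and 17.6 CPM in *Lmx1a-/-* libraries. All but wild-type embryo 3 lay above every mutant. Means were 51.5 ± 14.6 and 27.7 ± 7.82 CPM (SD, n = 5 each), 1.86-fold lower (log2 fold change -0.89, SE 0.22, FDR = 0.0578). The value without wild-type embryo 3 was -1.04 (FDR = 0.0119), and the call held in 4 of the 10 fits without 1 embryo. It was lost without wild-type embryo 1, 2 or 5 or *Lmx1a-/-* embryo 2, 4 or 5, where FDR rose to at most 0.143.

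*Id2* (ENSMUSG00000020644, chr12:25093799-25097140, minus strand) moved in the same direction by less. Wild-type libraries had 48.7, 60.6, 42.8, 63.8 and 55.9 CPM, and *Lmx1a-/-* libraries had 31.7, 36.7, 45.6, 38.6 and 30.4 CPM. Only wild-type embryo 3 and *Lmx1a-/-* embryo 3 crossed. Means were 54.4 ± 8.61 and 36.6 ± 6.08 CPM (SD, n = 5 each), 1.48-fold lower (log2 fold change -0.57, SE 0.13, FDR = 0.0452). The value without wild-type embryo 3 was -0.65 (FDR = 0.0183). The call held in 8 of 10 fits without 1 embryo, and FDR was 0.106 both without wild-type embryo 2 and without *Lmx1a-/-* embryo 5.

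*Id3* (ENSMUSG00000007872, chr4:136143497-136145755, plus strand) was the most abundant member per length and did not pass the test. It ranged from 123 to 214 CPM in wild-type and from 113 to 202 CPM in *Lmx1a-/-* libraries, and the ranges overlapped almost fully (180 ± 37 against 156 ± 32.8 CPM, SD, n = 5 each, log2 fold change -0.21, SE 0.16, FDR = 0.577). The value without wild-type embryo 3 was -0.32 (FDR = 0.288).

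*Id4* (ENSMUSG00000021379, chr13:48261228-48266026, plus strand), the family member best known from neural progenitors and glia, was the only one with a sizeable positive value. Wild-type libraries had 137, 88.2, 258, 80.6 and 114 CPM, and *Lmx1a-/-* libraries had 355, 289, 167, 245 and 235 CPM. Wild-type embryo 3 lay among the mutants and the other 4 wild-type libraries below all of them. Means were 136 ± 71.9 and 258 ± 69.6 CPM (SD, n = 5 each), and the log2 fold change of 0.93 (SE 0.29) missed the threshold (FDR = 0.118). Without wild-type embryo 3 it was 1.30 and passed (FDR = 0.00411), as it did without *Lmx1a-/-* embryo 3. *Id4* overlaps a pair of genes on the other strand and shares at most 171 exon bases with either of them. The counts of the pair summed to 151 over all libraries, small beside those of *Id4*.

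Per kilobase of exon, the order of the *Id* genes differed between the genotypes. In wild-type CH the mean levels were 100.4 CPM per kb for *Id3*, 44.4 for *Id1*, 35.2 for *Id4* and 22.3 for *Id2*. In *Lmx1a-/-* CH they were 87.0 for *Id3*, 67.1 for *Id4*, 23.9 for *Id1* and 15 for *Id2*. *Id1* and *Id4* overlapped in the wild-type libraries, where wild-type embryo 3 had the highest *Id4* and the lowest *Id1*. As a share of the summed *Id* level per length, *Id4* had a median of 13.2% (10.4 to 37.4%) in wild-type and 36.2% (20.9 to 42.1%) in *Lmx1a-/-* libraries. The share of *Id1* had a median of 23.4% (14.5 to 26.6%) in wild-type and 11.7% (9.97 to 16.1%) in *Lmx1a-/-* libraries. The wild-type range without embryo 3 was 10.4 to 17.3% for *Id4* and 20.4 to 26.6% for *Id1*, and neither share then overlapped between the genotypes. The sum itself lay between 179 and 225 CPM per kb in wild-type and between 152 and 219 CPM per kb in mutant libraries. Over all libraries the sum and both shares thus overlapped between the genotypes, and the shares themselves were not tested.

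**Figure D2:**
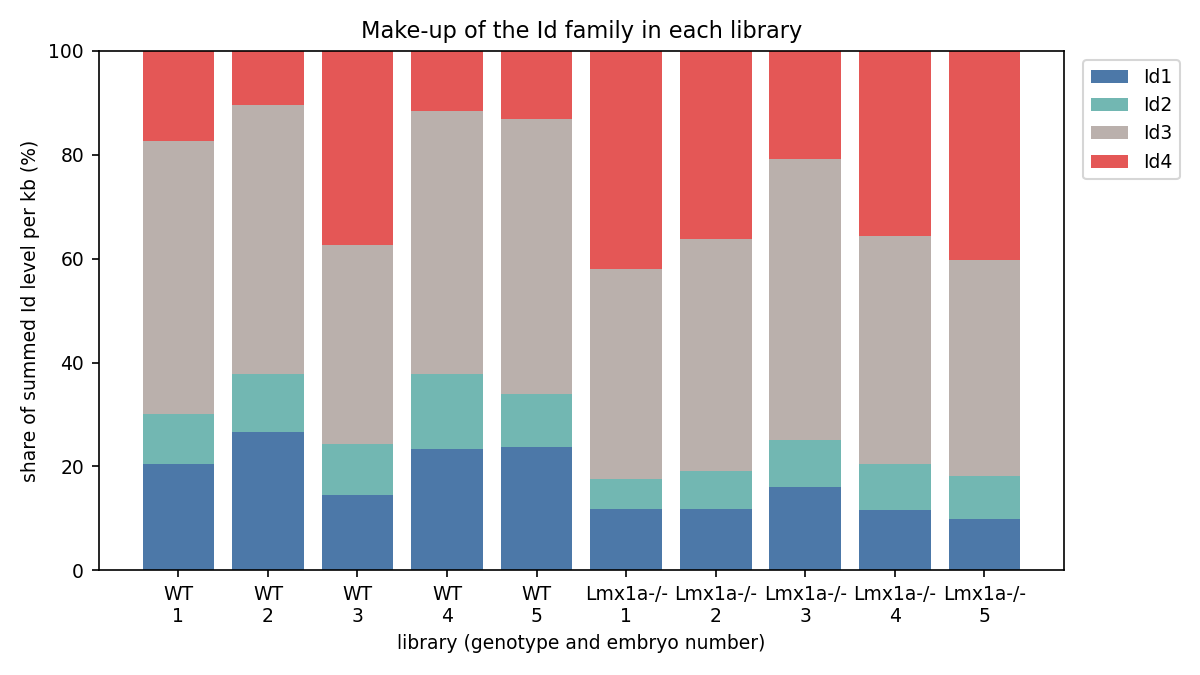
Share of each *Id* gene in the summed *Id* level per kilobase of exon, in percent, as 1 stacked bar per library (wild-type embryos 1 to 5, then *Lmx1a-/-* embryos 1 to 5). The *Id4* share is 37.4% in wild-type embryo 3, and 20.9 to 42.1% in the mutants.

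Short stretches of the *Id* and *Msx2* promoters are printed because they hold the motifs found there. GGCGCC, the GC-rich core bound by BMP-activated Smads, was found in the 300-base windows of *Id2*, *Id4* and *Smad9*, and in 11.9% of all 32851 windows of the table. TAATTA, a core bound by homeodomain proteins, was found in that of *Msx2* and in 5.29% of all windows. Of the 10 members, 7 had an entry; *Id1*, *Smad7* and *Bambi* had none. The motifs were chosen with the promoter sequences in view, and a match is a string of letters and not evidence of binding. Capitals mark the motif in each 30-base stretch (*Id2*, chr12:25096306-25096335, minus strand; *Id4*, chr13:48260956-48260985, plus strand; *Msx2*, chr13:53472950-53472979, minus strand).
*Id2*: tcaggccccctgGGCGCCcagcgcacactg
*Id4*: ctcgggttgcccGGCGCCccgccctcgcca
*Msx2*: tgactgctcctgTAATTAactcctaattta
*Id2*, which fell, and *Id4*, whose level was higher in the mutants without passing the test, thus shared the GC-rich core.

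*Smad9* encodes Smad8, a transducer that BMP receptors activate, and its own transcription rises with BMP signaling. *Smad9* (ENSMUSG00000027796, chr3:54755582-54801257, plus strand) was the member with the smallest p. Wild-type libraries had 10.6, 15.9, 7.12, 11.1 and 14.4 CPM, and *Lmx1a-/-* libraries had 1.26, 2.34, 4.26, 5.34 and 2.78 CPM. Every mutant lay below every wild-type library, wild-type embryo 3 included. Means were 11.8 ± 3.45 and 3.20 ± 1.61 CPM (SD, n = 5 each), 3.67-fold lower (log2 fold change -1.88, SE 0.34, FDR = 0.0121). The value without wild-type embryo 3 was -2.02 (FDR = 0.00628), and the call held in all 10 fits that left out 1 embryo, as for *Msx1* and for no other member.

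The 250 bases before the start of *Smad9* (RefSeq, GRCm38.p6, chr3:54755332-54755581, plus strand) are printed because this gene alone separated the genotypes. Capitals mark GGCGCC, which ends 46 bases before the start.
*Smad9*: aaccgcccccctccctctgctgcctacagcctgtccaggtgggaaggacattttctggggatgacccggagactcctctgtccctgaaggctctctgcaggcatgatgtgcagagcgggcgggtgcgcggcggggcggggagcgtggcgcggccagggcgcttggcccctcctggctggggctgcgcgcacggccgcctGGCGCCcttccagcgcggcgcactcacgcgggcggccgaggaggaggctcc

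The inhibitory Smads did not pass the test. *Smad6* (ENSMUSG00000036867, chr9:63953076-64022059, minus strand), which mainly blocks BMP receptor signaling, had 7.17, 12.3, 9.79, 11.7 and 10.8 CPM in wild-type libraries and 9.71, 10.4, 12.4, 12.4 and 6.96 CPM in *Lmx1a-/-* libraries. The groups overlapped over nearly their whole range (10.4 ± 2.01 against 10.4 ± 2.26 CPM, SD, n = 5 each, log2 fold change 0.0056, SE 0.19, FDR = 0.993, and -0.016, FDR = 0.982, without wild-type embryo 3). The promoter window of *Smad6* held GTCTAGAC, a palindrome that Smad proteins bind, across its start (chr9:64022045-64022074, minus strand, capitals). The motif was chosen with the promoter sequences in view, so its share of 0.213% of all windows does not measure how unlikely this match was.
*Smad6*: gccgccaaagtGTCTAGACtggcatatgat

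*Smad7* (ENSMUSG00000025880, chr18:75367529-75395935, plus strand), which blocks both BMP and TGF-beta receptors, ranged from 20.1 to 27.4 CPM in wild-type and from 13 to 27.0 CPM in mutant libraries (log2 fold change -0.39, SE 0.18, FDR = 0.290), with the groups overlapping. The value without wild-type embryo 3 was -0.46 (FDR = 0.221). The Smad genes and *Bambi* were the least abundant members per length in wild-type CH. In wild-type and *Lmx1a-/-* CH, mean levels were 5.52 and 4.21 CPM per kb for *Smad7*, 3.23 and 3.24 for *Smad6*, 2.20 and 0.596 for *Smad9*, and 1.72 and 0.837 for *Bambi*.

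Ratios of the Smad genes within a library do not depend on the scaling between libraries. The log2 ratio of *Smad6* to *Smad9* counts lay between -0.56 and 0.46 in wild-type and between 1.21 and 2.93 in *Lmx1a-/-* libraries, a difference of 1.99. The ratio of *Smad7* to *Smad9* lay between 0.75 and 1.5 in wild-type and between 1.77 and 3.60 in mutant libraries, a difference of 1.56. Neither ratio overlapped between the genotypes (exact permutation test, two-sided, p = 0.00794, the smallest that 5 against 5 libraries allow, adjusted p = 0.0265 for both). The ratio of *Smad6* to *Smad7* differed by 0.42 and did not pass (adjusted p = 0.0705). With wild-type embryo 3 left out the differences were 2.14, 1.66 and 0.49, in the same order (exact permutation test, adjusted p = 0.0227, 0.0227 and 0.0794).

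Of the 6 ratios within the *Id* family, 3 passed an adjusted p of 0.05. *Id1* relative to *Id3* lay between -2.03 and -1.59 in wild-type and between -2.69 and -2.38 in mutant libraries, with no overlap (difference -0.68, exact permutation test, adjusted p = 0.0265). *Id1* relative to *Id4* fell by 1.91 and *Id2* relative to *Id4* fell by 1.59 on the log2 scale (exact permutation test, adjusted p = 0.0265 each), with wild-type embryo 3 inside the mutant range. *Id3* relative to *Id4* differed by -1.23 (adjusted p = 0.0694, and 0.0227 without wild-type embryo 3, both by the exact permutation test). Without that embryo the differences were -0.73 for *Id1* to *Id3*, -2.36 for *Id1* to *Id4* and -1.94 for *Id2* to *Id4*. All 10 differences kept their sign whichever embryo was left out. With 4 against 5 libraries the smallest p is 0.0159, and the number of ratios past the threshold then ranged from 0 to 7; it was 0 without wild-type embryo 1, 2, 4 or 5 or *Lmx1a-/-* embryo 1 or 5, where the adjusted p of the 6 ratios that had passed did not exceed 0.0529.

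**Figure D3:**
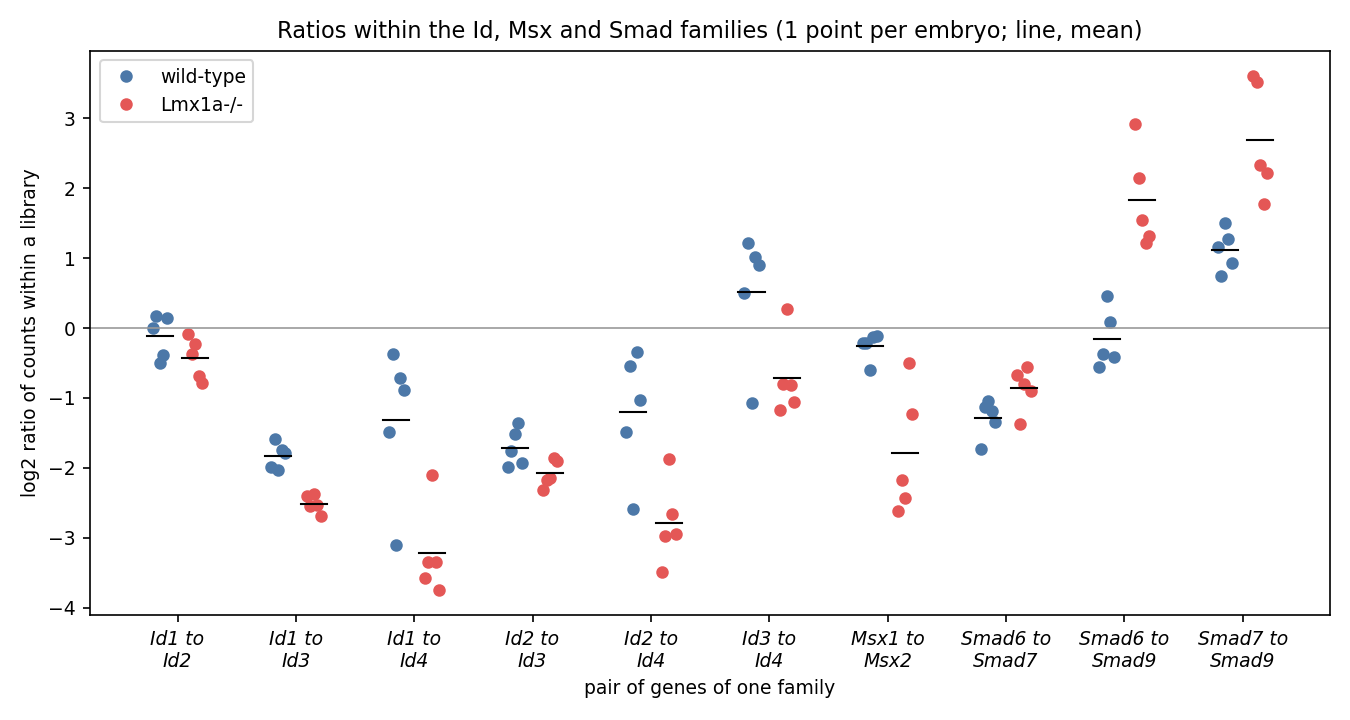
Log2 ratio of the counts of 2 members of a family in each library, 10 ratios, with 1 point per embryo and the genotypes side by side. The points of *Id1* to *Id3*, *Smad6* to *Smad9* and *Smad7* to *Smad9* do not overlap between wild-type and *Lmx1a-/-*.

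*Bambi* (ENSMUSG00000024232, chr18:3507923-3516404, plus strand) encodes a receptor-like protein without a kinase domain that blocks the receptors. Wild-type libraries had 7.80, 7.13, 4.26, 16.9 and 7.54 CPM, and *Lmx1a-/-* libraries had 3.89, 2.50, 5.31, 4.93 and 4.59 CPM. Wild-type embryo 4 lay above every other library and wild-type embryo 3 lay among the mutants. Means were 8.73 ± 4.79 and 4.25 ± 1.11 CPM (SD, n = 5 each), and the log2 fold change of -1.03 (SE 0.33) did not pass (FDR = 0.131). It was -1.21 and passed without wild-type embryo 3 (FDR = 0.0543), and -0.65 without wild-type embryo 4 (FDR between 0.0543 and 0.268 over the 10 fits without 1 embryo).

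**Figure D4:**
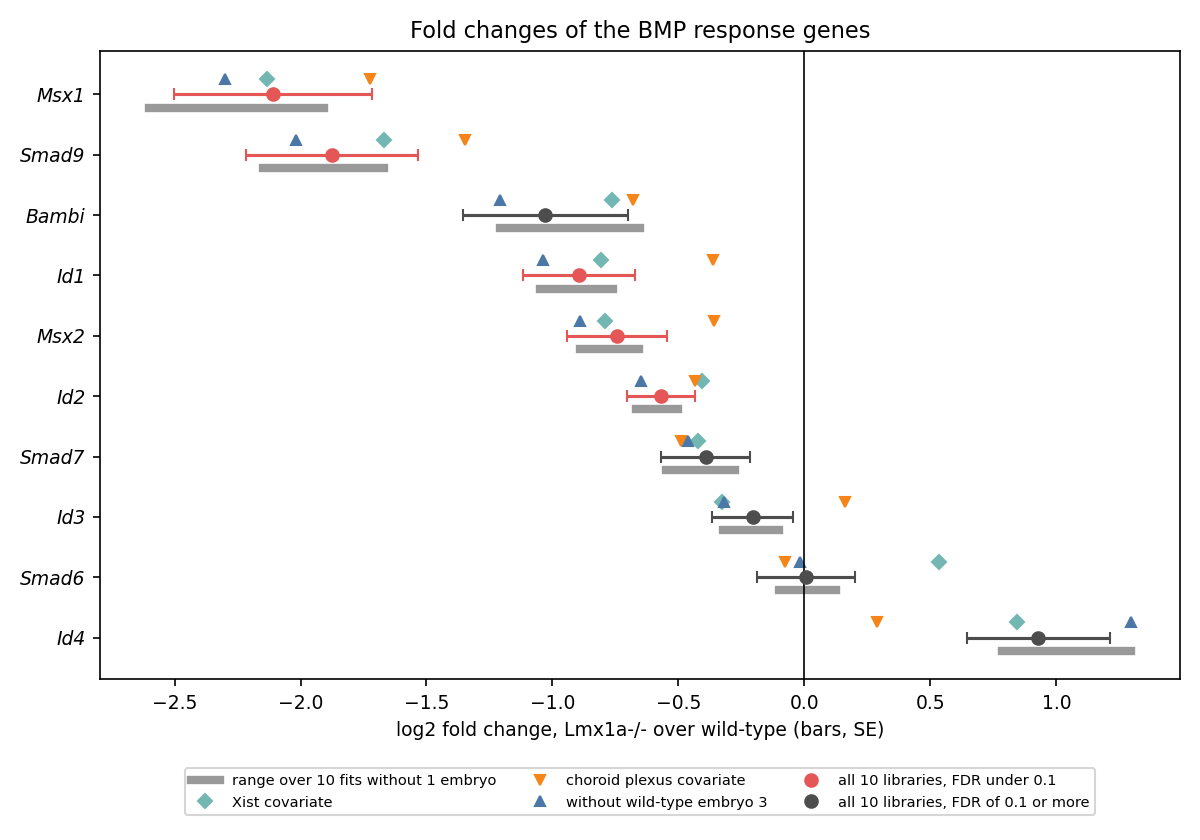
Log2 fold change (*Lmx1a-/-* over wild-type) of the 10 members with SE, red where FDR was under 0.1, with gray bars for the range over 10 fits without 1 embryo and symbols for the values without wild-type embryo 3 and with *Xist* or choroid plexus level as a covariate. *Msx1* lies at -2.11 and *Smad9* at -1.88, and *Id4*, at 0.93, lies farthest to the right.

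Sex and the level of choroid plexus markers moved with genotype, and fewer genes were called over all genes tested when either was a covariate. Their part in the calls of the members was not tested. Wild-type embryo 1, the one wild-type library with Y-linked transcripts, lay outside all 5 mutants for 7 members, above them for *Id1*, *Id2*, *Msx1*, *Msx2*, *Smad9* and *Bambi* and below them for *Id4*. This is 1 library, and these are the same 7 members that did not overlap without wild-type embryo 3. The share of all tested genes for which wild-type embryo 1 lay outside the mutants was not computed, so the count has nothing to be set against. When *Xist* was a covariate of edgeR's quasi-likelihood test, 0 members passed, with 3 at an unadjusted p under 0.05. Over all genes 26 were then called lower and 1 higher, against 497 and 373 without it, and 2040 of 21664 had such a p. The log2 fold change was -2.13 for *Msx1* (SE 0.61, FDR = 0.286), -1.67 for *Smad9* (SE 0.55, FDR = 0.354), -0.81 for *Id1* and -0.79 for *Msx2*. *Id2* was at -0.41 with *Xist* (SE 0.24, FDR = 0.624), against -0.57 without it. Without the covariate the SE was 0.39 for *Msx1* and 0.34 for *Smad9*. Among the 6 libraries with Y-linked transcripts, which leave 1 wild-type library whose spread is taken from the mutants, the log2 fold change was -2.17 for *Msx1* and -1.73 for *Smad9*. In these libraries it was -0.82 for *Id1*, -0.80 for *Msx2* and -0.42 for *Id2*. With the mean log2 CPM of the choroid plexus markers as a covariate of the same test, 0 members passed and 2 had an unadjusted p under 0.05. Over all genes 20 were then called lower and 19 higher, and 1875 of 21664 had such a p. The values were -1.73 for *Msx1*, -1.35 for *Smad9*, -0.43 for *Id2*, -0.36 for *Id1* and -0.36 for *Msx2*. With the choroid plexus covariate *Id4* was at 0.29 (FDR = 0.855), against 0.93 without it, and it was at 0.84 with *Xist* and 0.91 in the Y-linked libraries. *Smad6*, at 0.0056 without a covariate, was at 0.53 (SE 0.34, FDR = 0.657) with *Xist* and at 0.53 (SE 0.37, FDR = 0.698) in the Y-linked libraries. With the mean log2 CPM of the meningeal markers as a covariate, 2 members passed, *Msx1* and *Smad9*, while 226 genes were called lower and 126 higher over all genes. The likelihood ratio test and DESeq2 were not run with these covariates.

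The marker levels themselves were as follows. Choroid plexus markers summed to between 121 and 480 CPM in wild-type and between 149 and 221 CPM in *Lmx1a-/-* libraries, and 3 of 11 tested markers were lower (*Ttr*, *Htr2c* and *Slc4a5*), with a median log2 fold change of -1.15. *Ttr*, the most abundant protein product of that epithelium, was at 78.3 ± 66.9 and 7.23 ± 5.94 CPM (SD, n = 5 each). *Kl* of this list was under 1 CPM. Meningeal markers summed to 403 to 1066 CPM in wild-type and 349 to 594 CPM in mutant libraries, with 3 of 11 lower (*Dcn*, *Lum* and *Pdgfra*; without wild-type embryo 3 *Dcn* no longer passed, FDR = 0.107). Hem markers summed to 2205 to 4181 CPM and 2630 to 3723 CPM, with 3 of 9 lower (*Lmo2*, *Wnt2b* and *Wnt5a*) and *Lmx1a* higher. Cajal-Retzius cell markers, which belong to neurons born in the hem, summed to 296 to 496 CPM and 197 to 287 CPM without overlap, with 3 of 6 lower (*Reln*, *Trp73* and *Lhx1*) and *Lhx5* higher. Cortical neuroepithelium markers summed to 309 to 646 CPM and 565 to 784 CPM, with *Emx2* higher. Red blood cell markers also did not overlap, at 643 to 1489 CPM and 268 to 581 CPM, with *Hba-a2* under 1 CPM. Endothelial markers, whose cells also use *Id1*, *Id3*, *Smad6* and *Smad7*, summed to 28.4 to 106 CPM and 27.1 to 71.1 CPM. Sums were 40.2 to 69.5 and 30.9 to 64.9 CPM for pericytes, 16.6 to 35.0 and 19.1 to 34.2 CPM for microglia, and 724 to 1122 and 811 to 1247 CPM for neurons. The part of these cells in the levels of the response genes was not tested beyond the covariate fits above.

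The tested genes nearest in pattern to each member were those with the smallest SD of the log2 ratio of CPM over the 10 libraries, among 16717 genes. *Car10* was nearest to both *Msx1* (SD 0.34) and *Smad9* (SD 0.20), where the median gene had an SD of 1.42 and 1.24. *Bmp4*, which encodes a BMP ligand, was nearest to *Msx2* (SD 0.19, median gene 0.61), followed by the Wnt receptor gene *Fzd10* (SD 0.20). *Mov10* was nearest to *Id2* (SD 0.11, median gene 0.48). *Nr2e1*, an orphan nuclear receptor of neural stem cells, was nearest to *Id4* (SD 0.24, median gene 0.81). Among the members, *Msx1* and *Smad9* were each other's nearest (SD 0.42), as were *Id2* and *Msx2* (SD 0.20). These values include the difference between the genotypes and describe likeness over the same libraries.

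Among the ligands, 1 of 12 tested genes passed: *Bmp7* was lower, at 108 ± 31.5 and 57.1 ± 8.06 CPM (SD, n = 5 each, log2 fold change -0.91, SE 0.19, FDR = 0.0228), and the list median was -0.36. The summed ligands were 220 CPM in wild-type embryo 3, 316 to 368 CPM in the other wild-type libraries and 237 to 283 CPM in the mutants. Among receptors and coreceptors 1 of 14 passed, *Acvr2a*, a type II receptor, which was higher by 0.30 (SE 0.085, FDR = 0.0887; list median -0.095). Among transducers and their nuclear partners 1 of 13 passed, *Zfp423*, a zinc finger partner of Smads, higher by 0.41 with no overlap (SE 0.11, FDR = 0.0874; list median 0.027). *Bmp7* without wild-type embryo 3 was at -1.06 (FDR = 0.000806) and *Acvr2a* at 0.33 (FDR = 0.0859), and *Zfp423*, at 0.36, no longer passed (FDR = 0.145).

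Of 18 extracellular antagonists and modulators, 2 passed in opposite directions. *Nbl1*, a secreted BMP antagonist, was at 19.8 ± 6.75 and 7.42 ± 3.00 CPM (SD, n = 5 each, log2 fold change -1.41, SE 0.29, FDR = 0.0238), with every mutant below every wild-type library. *Chrdl1*, a chordin-like antagonist, was at 6.47 ± 1.09 and 10.4 ± 2.05 CPM (SD, n = 5 each, log2 fold change 0.68, FDR = 0.0791), again with no overlap. The list median was -0.11. *Nbl1* without wild-type embryo 3 was at -1.51 (FDR = 0.0182) and *Chrdl1* at 0.70 (FDR = 0.0989).

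Of the basic helix-loop-helix genes reported here, a list that includes the E proteins Id proteins bind, *Hey1* passed. *Hey1*, a repressor downstream of Notch, was at 72.7 ± 10.8 and 112 ± 9.03 CPM (SD, n = 5 each, log2 fold change 0.62, SE 0.10, FDR = 0.00656), with no overlap. Of 17 tested genes that BMP signaling induces in other tissues, *Dlx5* passed, with 7.72 ± 3.99 and 26.8 ± 10.8 CPM (SD, n = 5 each, log2 fold change 1.81, SE 0.36, FDR = 0.0210), which is opposite in direction to the 5 response genes that were called. The median of this last list was -0.16. *Hey1* without wild-type embryo 3 was at 0.71 (FDR = 0.000666) and *Dlx5* at 1.61 (FDR = 0.0228).

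**Figure D5:**
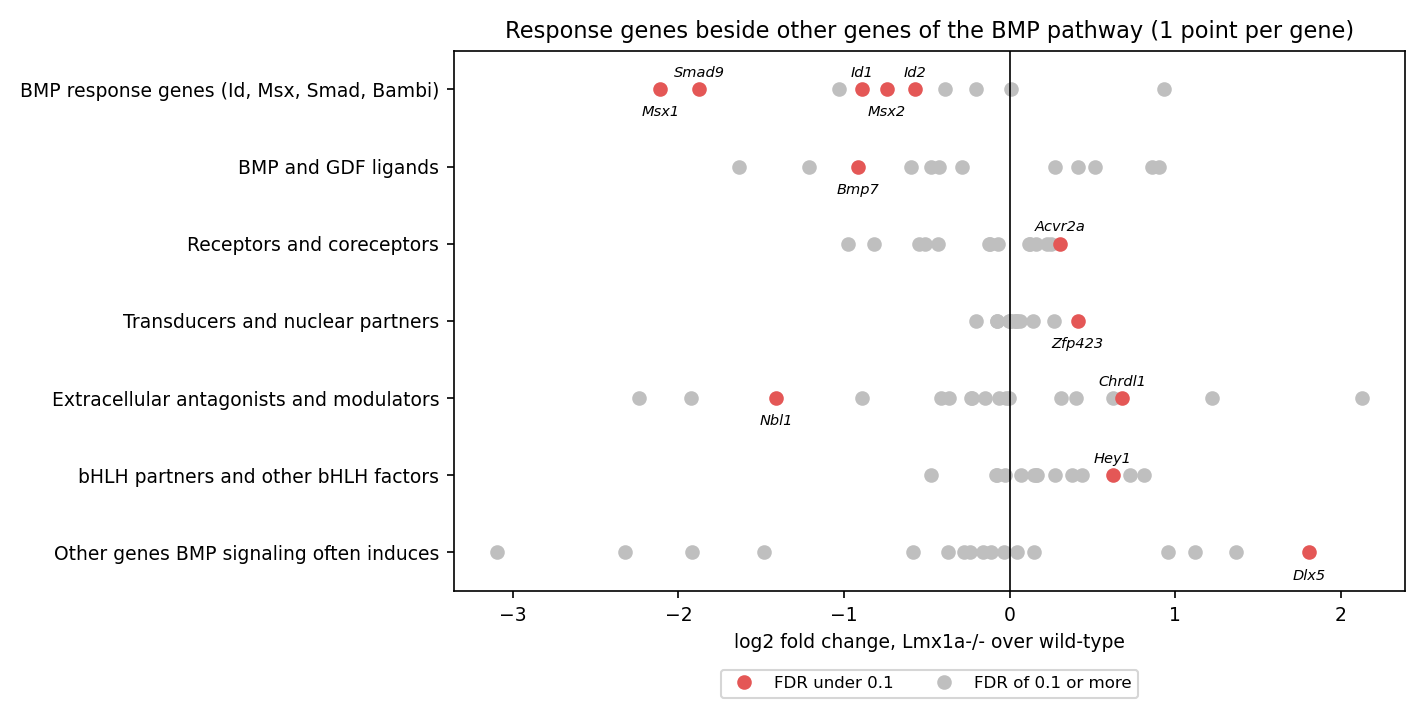
Log2 fold change (*Lmx1a-/-* over wild-type) of the BMP response genes and of tested genes of 6 other lists of the pathway that are reported here, 1 point per gene, red and named where FDR was under 0.1. The 10 response genes hold 5 called genes, all left of 0, and *Dlx5* lies farthest right of the named genes, at 1.81.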

How the data were processed

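The CH of 5 wild-type and 5 *Lmx1a-/-* embryos was compared by RNA-seq, and genotype and embryo number were taken from the labels. After quality control with FastQC 0.11.8 and Trimmomatic, the authors mapped read pairs to GRCm38 with STAR 2.7.1a, and HTSeq 0.11.2 made the count of each gene (versions from the submitters' processing notes). The deposited values are raw counts per gene. The strand setting of the counting is not given in the sources used here.

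Of 52508 rows, 281 repeats were dropped. A gene entered the test with a count of 10 or more in 3 or more libraries. The test was that of edgeR 4.0.16 (R 4.3.3, limma 3.58.1) with TMM scaling and the quasi-likelihood fit (legacy = TRUE, no covariate), with Benjamini-Hochberg adjustment over all tested genes and an FDR threshold of 0.1. Which edgeR test the study used is not given in the sources used here. The SE is the absolute log2 fold change divided by the square root of F. Scripts were tested on simulated data. The p-values measure the spread between embryos. Family ratios used log2((count + 0.5)/(count + 0.5)) and an exact permutation test over 252 splits (SciPy 1.17.1). Positions and exon lengths are from GENCODE M21, and promoters from the RefSeq table for GRCm38.p6 (250 bases before and 50 after the start). Likeness used log2 CPM with a prior count of 2 for genes with a mean of at least 1 CPM.

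The named genes were the 10 members, *Lmx1a*, those past the FDR threshold in each pathway list, up to 4 by p, and the nearest genes. Not every gene so named is reported here. The lists were ligands, receptors, transducers, antagonists, bHLH factors, other genes BMP signaling often induces, and cell type markers. Members, lists and tests were chosen with earlier results of these data known, and motifs with the promoter sequences in view. Alternatives were DESeq2 1.42.0, other scalings, filters and covariates, a replicate block and leaving out each embryo. Overlaps, *Id* shares and pathway genes without wild-type embryo 3 were added after seeing the data.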

Additional observations from a re-analysis of the deposited data

Results flagged for a closer look

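Of 20 groups of 5 libraries (10 members in 2 genotypes), 1 held a value far from the others by Dixon's test at the 95% level. *Bambi* was at 16.9 CPM in wild-type embryo 4, and the gap to the next wild-type library was 0.720 of the whole range of the group. Chance flags about 1 in 20 such groups. Without that embryo the log2 fold change of *Bambi* was -0.65.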

How the results depend on the processing

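Embryos of the same number were not treated as pairs: correlations of their deviations from the genotype means lay between -0.099 and 0.013, and 0 libraries correlated best with their own number. The paper describes the wild-type embryos as littermates of the mutants. The labels do not give the litters, so litter could not enter the test. With the replicate block 3 members were lower (*Id2*, *Msx1* and *Smad9*), and over all genes 353 were lower and 248 higher, against 497 and 373 without it.

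The number of members called higher was 1 with the likelihood ratio test, DESeq2, no filter on low counts, the endothelial covariate and the pericyte covariate (the last chosen after seeing the data), *Id4* in each. Members called lower numbered 3 at an FDR of 0.05, 2 with the meningeal covariate and 0 with the *Xist* covariate, the choroid plexus covariate or Y-linked libraries only. Over all genes, lower and higher calls were 805 and 555 (likelihood ratio test), 976 and 790 (DESeq2), 251 and 197 (FDR of 0.05), 26 and 1 (*Xist*), 20 and 19 (choroid plexus), 226 and 126 (meningeal), and 86 and 44 (Y-linked libraries only). Leaving out 1 embryo gave 2 to 6 members lower, 0 to 1 higher, 261 to 604 genes lower, 190 to 455 genes higher and 0 to 7 ratios past the threshold. Members called lower numbered 2 without wild-type embryo 2 or *Lmx1a-/-* embryo 5 and 3 without wild-type embryo 1 or *Lmx1a-/-* embryo 2 or 4. The log2 fold change of *Smad6*, close to 0, changed sign to -0.0030 (at least 1 CPM in 5 libraries), -0.077 (choroid plexus), -0.10 (endothelial), -0.091 (meningeal) and -0.13 (pericyte), and lay between -0.10 and 0.13 without 1 embryo; *Id3* became 0.16 (choroid plexus). The largest move of *Smad6* was to 0.53, with the *Xist* covariate and in Y-linked libraries only. With the choroid plexus covariate *Id4* moved from 0.93 to 0.29 and *Id1* from -0.89 to -0.36. The causes of these moves were not tested. Counts of the members ranged from 38 (*Smad9*) to 10687 (*Id4*) per library.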
